A study of Mus musculus with 12 samples.

Results

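The genes described here are 56 genes of the cell cycle engine together with Myc, Mycn and p53, read on 12 expression arrays of mouse embryonic stem (ES) cells that were or were not turned into cells resembling extraembryonic endoderm (XEN-like cells). A gene was taken where the gene name of a probe in the scanner output equalled a name of the set. Measured values played no part in that matching, but the names were chosen with earlier results of these data known. All 56 names were found, on 78 probes, among 34836 gene names on the array. A probe was tested where, in at least 1 of the 4 groups, it was well above background on every array, and 53 of the genes had such a probe. The other 3 were Cdk6, Ccne2 and Aurkb, whose probes were not well above background on any array.

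Every culture carried Gata6GR, which is full-length mouse Gata6 fused to the ligand-binding domain of the human glucocorticoid receptor and driven by the CAG promoter, so that dexamethasone (Dex) switches it on. The 4 groups were Sox7 (+/-) ES cells without Dex, Sox7 (+/-) XEN-like cells with Dex, Sox7 (-/-) ES cells without Dex and Sox7 (-/-) XEN-like cells with Dex, all collected at day 4, with 3 one-colour Agilent arrays in each. In the mutated allele the coding exons of Sox7 were replaced by a selection cassette, and the Sox7 (-/-) cells were obtained from the Sox7 (+/-) line by selection in a high dose of puromycin. The study asked whether Sox7 is needed when Gata6 drives ES cells to extraembryonic endoderm. Each genotype was 1 line, no wild-type line is among the groups, and Dex was never given without Gata6GR, so that effects of Dex alone and of active Gata6GR cannot be told apart. The source labels of the Sox7 (+/-) ES arrays give the same replicate number, 1, for each of the 3, and nothing states that replicates were separate cultures. The p-values therefore measure the spread between these arrays, which may be technical.

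A cell commits to division when D cyclins with Cdk4 or Cdk6, and then E cyclins with Cdk2, phosphorylate the pocket proteins Rb1, Rbl1 and Rbl2 and so release E2f factors, which switch on the genes of DNA replication. Small proteins of the Cdkn1 and Cdkn2 families hold these kinases back, while Myc and Mycn push cells toward growth and division and p53 (Trp53) answers DNA damage, in part through the inhibitor Cdkn1a. ES cells are known for a short first gap phase with little restraint by pocket proteins and inhibitors, and for high Myc family activity. Cyclins A and B with Cdk1 then bring the cell into mitosis, and many genes of that phase share a promoter element called the cell cycle homology region, often beside CCAAT boxes.

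The promoters of the set are shown first, since E2f sites and the cell cycle homology region stood at different shares in its replication and mitotic genes. No test of these shares was run, and neither motif was confined to 1 class. Windows from 250 bases before to 50 bases after the transcription start, from RefSeq on GRCm38.p6, were found for 44 of the 56 genes. The windows were searched on both strands for the E2f site in its 4 spellings (TTCCCGC or TTCGCGC or TTGCCGC or TTGGCGC), for the cell cycle homology region, spelled TTTGAA in most promoters and TTCGAA in others, for the CCAAT box, and for the E-box, which is bound by Myc together with Max and reads CACGTG. A gene with several windows was counted where any of them held the motif. The reverse of TTGGCGC ends in CCAA and can share bases with a CCAAT box, and the sites TTGGCGC and TTCGCGC overlap each other when they stand on opposite strands. Capitals mark all matches of these motifs, and a match describes letters only. Sequences are 5′ to 3′ on the strand of the gene, positions are counted from the start with -1 just before it, and coordinates are those of GRCm38.p6.

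E2f sites stood in 6 of the 9 replication genes with a window (Mcm3, Mcm5, Mcm6, Mcm7, Cdc6 and Cdt1), 66.7%, and in 10.9% of all 27025 genes with a window. Mcm5 and Mcm6, subunits of the helicase that opens DNA, are shown because their sites lie in pairs that overlap, and Mycn and E2f2 because their array values are described in full further on. In Mcm6 a reversed CCAAT box stands between them, and for E2f2 the window that holds a site is used. The Mcm5 stretch is chr8:75109334-75109383 on the plus strand, positions -175 to -126, and the Mcm6 stretch is chr1:128359741-128359820 on the minus strand, positions -115 to -36. The Mycn stretch is chr12:12941987-12942026 on the minus strand, positions -190 to -151, and the E2f2 stretch is chr4:136172299-136172323 on the plus strand, from the 26th to the 50th base of the transcript.
Mcm5: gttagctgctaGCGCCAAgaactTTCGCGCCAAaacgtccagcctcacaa
Mcm6: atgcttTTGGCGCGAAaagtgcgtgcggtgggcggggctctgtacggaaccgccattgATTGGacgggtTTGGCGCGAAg
Mycn: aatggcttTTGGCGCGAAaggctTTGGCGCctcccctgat
E2f2: ttggcggcatatagtTTGGCGCtaa

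Among the 12 mitotic genes with a window, 9 held a cell cycle homology region (75%, against 21.7% of all genes), all 9 of them together with CCAAT, and 4 held an E2f site. The homology region also stood in 2 of the 9 replication genes. The CCAAT box was common, in 41.1% of all genes, 31 of the 44 of the set and 7 of the 9 replication genes (77.8%). Cdc20, Ccnb2, Cdk1 and Top2a are shown for the spacing of these elements, and Cdk1 for holding E2f sites as well. Some matches lie outside the printed stretches. Ccnb2 has another TTTGAA past its CCAAT boxes, from the 5th base of the transcript. Top2a has another TTTGAA at -179 and CCAAT boxes at -227 and -189. The stretches are chr4:118437344-118437403 (Cdc20, positions -60 to -1), chr9:70421555-70421729 (Ccnb2, -175 to -1), chr10:69352913-69353127 (Cdk1, -215 to -1) and chr11:99024205-99024344 (Top2a, -155 to -16), all on the minus strand.
Cdc20: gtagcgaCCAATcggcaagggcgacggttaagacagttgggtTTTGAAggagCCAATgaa
Ccnb2: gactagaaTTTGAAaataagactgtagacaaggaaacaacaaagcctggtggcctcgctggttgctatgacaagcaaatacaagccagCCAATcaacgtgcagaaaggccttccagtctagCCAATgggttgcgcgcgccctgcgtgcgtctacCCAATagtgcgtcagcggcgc
Cdk1: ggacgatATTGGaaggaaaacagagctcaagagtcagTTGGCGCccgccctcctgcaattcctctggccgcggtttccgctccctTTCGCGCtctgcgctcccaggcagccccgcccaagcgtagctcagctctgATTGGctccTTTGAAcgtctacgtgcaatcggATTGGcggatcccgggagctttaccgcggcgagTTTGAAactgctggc
Top2a: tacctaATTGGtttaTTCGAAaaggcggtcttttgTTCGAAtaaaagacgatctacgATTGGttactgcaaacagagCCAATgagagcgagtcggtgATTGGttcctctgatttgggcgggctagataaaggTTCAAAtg

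Shares were also counted in genes of these pathways that are not in the set. Of 28 other replication genes with a window, 18 held an E2f site (64.3%) and 6 a cell cycle homology region (21.4%). Of 26 other mitotic genes, 2 held an E2f site (7.69%) and 18 a cell cycle homology region (69.2%). The E-box was rare, in 5 of the 44 genes (11.4%, against 8.09% of all genes), and Cdk4, the kinase partner of the D cyclins, is shown because it held 4 of them in chr10:127063355-127063534 on the plus strand, positions -180 to -1. Windows of the set had a mean GC content of 61.5%, against 53.6% for all genes, and how far base composition sets these shares was not tested.
Cdk4: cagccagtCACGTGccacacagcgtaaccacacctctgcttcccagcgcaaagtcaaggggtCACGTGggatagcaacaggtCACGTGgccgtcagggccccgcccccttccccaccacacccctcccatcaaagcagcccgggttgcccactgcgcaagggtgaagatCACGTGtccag

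Levels are given below as relative signal, the signal of a probe divided by the 75th percentile of its array, and differences as log2 of the ratio between group means with the standard error (SE) from 1 limma fit over all 12 arrays and all 25940 tested probes. Relative signals of different probes are not comparable with each other. A gene is said to rise or fall where the adjusted p was under 0.05, and is called where it also changed over 2-fold. The 75th percentile itself lay between 252 and 416 intensity units, the share of spots well above background ranged from 41.7% to 52.3%, and replicates of a group correlated at r = 0.982 to 0.996 across probes, with the largest spread among the Sox7 (+/-) XEN-like arrays. Sox7 was between 2.18 and 2.29 on the Sox7 (+/-) ES arrays and between 4.90 and 6.88 on the Sox7 (+/-) XEN-like arrays, and it was not well above background on any Sox7 (-/-) array. The 9 extraembryonic endoderm markers were all above background in every group and summed to 2222 to 2533 in Sox7 (+/-) and 2036 to 2143 in Sox7 (-/-) XEN-like cells, against 1256 to 1303 and 1057 to 1143 in the ES cells. The 6 pluripotency markers summed to 213 to 225 and 451 to 484 in ES cells and to 49.0 to 55.8 and 72.2 to 79.0 in XEN-like cells, where Nanog and Sox2 were below background. Within these sums 5 of the 6 were called lower with Dex in each genotype, and 1 was called higher in Sox7 (+/-) cells (1.46). Between the genotypes in XEN-like cells, 2 were called higher in Sox7 (-/-) cells and none lower, with a highest log2 difference of 4.63. Arrays lay on 2 slides, one with all Sox7 (+/-) arrays and Sox7 (-/-) XEN-like replicates 2 and 3, the other with the Sox7 (-/-) ES arrays and replicate 1 of the Sox7 (-/-) XEN-like cells.

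Dex treatment called 5 genes of the set higher and 3 lower in Sox7 (+/-) cells, where 11.0% of all probes were called higher and 14.0% lower, and 5 higher and 8 lower in Sox7 (-/-) cells, where these shares were 14.6% and 14.2%. The shares of the set thus lay below those of the array or, for the 8 genes, near them. Ccnd2, Cdkn1a and Cdkn2a were called higher in both genotypes and Ccnd1, Mcm5 and Trp53 lower in both. Called in Sox7 (+/-) cells alone were Cdkn2c and Cdkn2d, both higher. Called in Sox7 (-/-) cells alone were Mycn and Cdkn2b, higher, and Myc, E2f1, E2f2, Mcm10 and Cdc25b, lower. A call in 1 genotype alone does not show that the responses differed. With array-wide spike-in controls as the scale the count in Sox7 (+/-) cells became 3 higher and 14 lower, and with quantile normalization 5 higher and 7 lower, so the balance of directions there depends on the scale.

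Without a minimum fold, 14 genes rose and 24 fell with Dex in Sox7 (+/-) cells, where 37.5% and 25.3% of all probes did, and 15 rose and 26 fell in Sox7 (-/-) cells, where 34.0% and 31.3% did. Of these, 12 rose in both genotypes, 23 fell in both, and E2f8 went opposite ways. The median log2 difference of the 53 genes was -0.13 in Sox7 (+/-) and -0.20 in Sox7 (-/-) cells, beside 0.16 and 0.07 for all probes. Most of the genes that fell were replication and mitotic genes, mostly by under 2-fold, while the kinase inhibitors rose by more. The arrays read RNA of whole cultures, so fewer cells in a phase and less RNA per cell cannot be told apart.

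**Figure D1:**
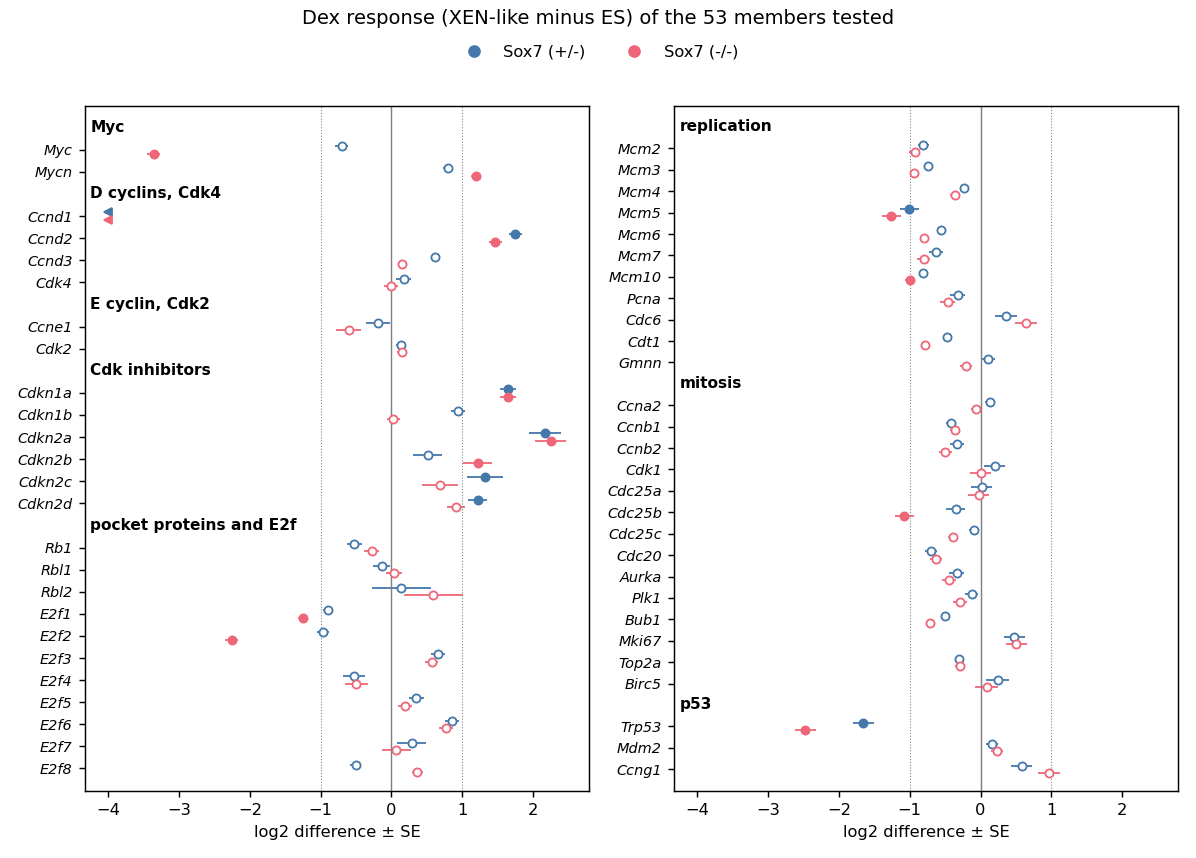
Log2 difference between XEN-like and ES cells for the 53 tested genes, grouped by role on the vertical axis, with Sox7 (+/-) cells in blue and Sox7 (-/-) cells in red, filled where called, SE as bars and dotted lines at 2-fold. The inhibitors lie at or right of 0 and most replication genes left of it, Myc and E2f2 show the widest gaps between the genotypes, and Ccnd1, at -7.04 and -7.51, is drawn at the edge.

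Between the genotypes, XEN-like cells had no gene of the set called higher and 2 called lower without Sox7 (Myc and Ccnd2), where 3.86% and 3.65% of all probes were. In ES cells 1 was called higher (E2f2) and 1 lower (Ccnd2), against 1.95% and 6.67%. For the difference between genotypes in the Dex response, none was called higher and 2 were called lower (Myc and E2f2), against 6.62% and 3.17%. These comparisons share their arrays with the Dex responses and with each other. In XEN-like cells 2 genes were called higher and 2 lower on the spike-in scale.

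Myc and Mycn, the pair of related transcription factors, went opposite ways in XEN-like cells. The Myc probe lies at chr15:61821417-61821476 (mm9). Its relative signal was 1.003, 0.914 and 0.956 in Sox7 (+/-) ES cells and 0.518, 0.588 and 0.665 in Sox7 (+/-) XEN-like cells. It was 1.62, 1.65 and 1.59 in Sox7 (-/-) ES cells and 0.163, 0.151 and 0.159 in Sox7 (-/-) XEN-like cells. No group overlapped another: the Sox7 (-/-) cells had the highest Myc level without Dex and the lowest with it. The Dex difference was -0.71 (SE 0.09, adjusted p = 6.39e-05) in Sox7 (+/-) cells and -3.36 (SE 0.09, adjusted p = 5.15e-10), a 10.3-fold fall, in Sox7 (-/-) cells.

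The test of the difference itself gave -2.65 for Myc (SE 0.13, adjusted p = 5.99e-07), the largest difference in Dex response in size among the 53 genes. Among XEN-like cells the genotypes differed by -1.90 in Myc (Sox7 (-/-) minus Sox7 (+/-), log2, adjusted p = 5.84e-07), and by -1.92 without the Sox7 (-/-) array on the other slide. Among ES cells they differed by 0.76 (adjusted p = 0.000128), below the 2-fold threshold. The XEN-like difference was -0.88, short of a call, in the deposited table, which is neither background-subtracted nor scaled. The difference in Dex response was -1.55 there and stayed called.

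Mycn was read by a probe at chr12:12943193-12943252 (mm9). It gave 14.0, 13.7 and 13.8 in Sox7 (+/-) ES cells, 25.7, 24.1 and 22.1 in Sox7 (+/-) XEN-like cells, 11.3, 12.1 and 11.2 in Sox7 (-/-) ES cells and 26.7, 26.1 and 26.3 in Sox7 (-/-) XEN-like cells. All XEN-like arrays lay above all ES arrays. The rise was 0.79 (SE 0.07, adjusted p = 3.42e-06) in Sox7 (+/-) and 1.19 (SE 0.07, adjusted p = 1.19e-07) in Sox7 (-/-) cells, the latter called, and it was larger in Sox7 (-/-) cells by 0.40 (adjusted p = 0.0124). On the spike-in scale the rise in Sox7 (+/-) cells was 0.31 (adjusted p = 0.095). Between the genotypes in XEN-like cells Mycn differed by 0.14 (adjusted p = 0.138).

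**Figure D2:**
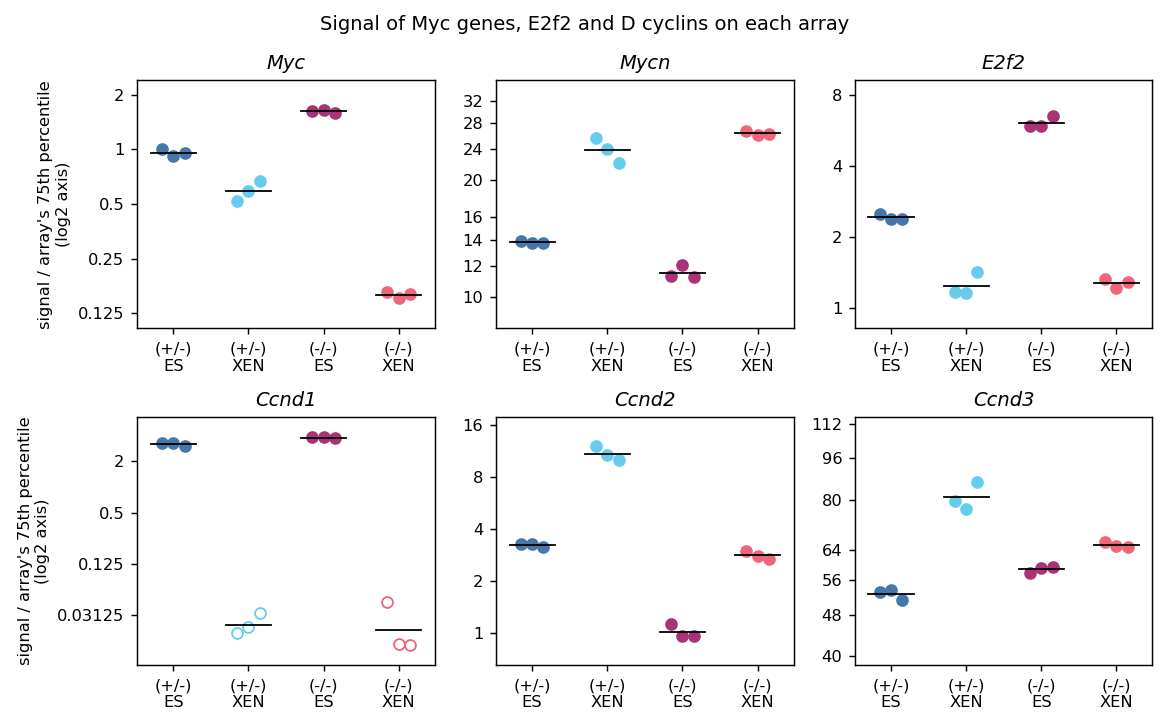
Relative signal of Myc, Mycn, E2f2, Ccnd1, Ccnd2 and Ccnd3 on each of the 12 arrays, on a log2 axis, with 1 panel per gene, 1 point per array, lines at the mean of the log2 values and open circles where the probe was not well above background. Myc ends lowest in Sox7 (-/-) XEN-like cells at 0.151 to 0.163, E2f2 starts highest in Sox7 (-/-) ES cells at 5.93 to 6.56, and Ccnd1 is at background in both XEN-like groups.

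The partners and antagonists of Myc (10 genes, 8 tested) included 1 called higher and 1 lower in each Dex response, the same pair in both: Mxd4, an antagonist of Myc that binds Max, rose by 1.85 and 2.27, and Mxd3, another member of that family, fell by 1.71 and 1.70 on the log2 scale. Those counts lie near the shares of all probes. These were 11.0% called higher and 14.0% lower in Sox7 (+/-) cells, and 14.6% and 14.2% in Sox7 (-/-) cells. Of 20 genes known as Myc targets, 18 were below 0 in Sox7 (+/-) and 17 in Sox7 (-/-) cells, with medians of -0.50 and -0.74. At the adjusted p 13 and 16 of them fell, where 25.3% and 31.3% of all probes did. Called lower were Tert, the catalytic subunit of telomerase, in both (-1.32 and -1.16), and Cdca7 (-1.41), Bop1 (-1.37) and Rrp9 (-1.10) in Sox7 (-/-) cells. For the difference between genotypes in the Dex response, 17 of the 20 targets lay below 0, but 17 lay above 0 in the deposited table and 16 on the spike-in scale, so that direction is not settled. No Myc target was called in that comparison.

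The 3 D cyclins, the regulatory subunits of Cdk4 and Cdk6, took 3 different courses. Ccnd1 (probe at chr7:152116202-152116261, mm9) gave 3.25, 3.28 and 3.05 in Sox7 (+/-) ES cells and 3.85, 3.81 and 3.70 in Sox7 (-/-) ES cells, and between 0.0138 and 0.0447 in XEN-like cells, where it was not well above background on any of the 6 arrays. Measured against the lowest signal among probes well above background on each array, Ccnd1 was at least 34.0-fold lower in Sox7 (+/-) and at least 50.6-fold lower in Sox7 (-/-) XEN-like cells than in the ES cells (adjusted p = 1.1e-07 and 5.27e-08). It was the largest difference in the set in both genotypes.

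Ccnd2 (probe at chr6:127098696-127098755, mm9) was the member that differed most between the lines in both states. It gave 3.26, 3.29 and 3.16 in Sox7 (+/-) ES cells, 12.04, 10.68 and 10.01 in Sox7 (+/-) XEN-like cells, 1.13, 0.959 and 0.965 in Sox7 (-/-) ES cells and 2.99, 2.79 and 2.67 in Sox7 (-/-) XEN-like cells. The Sox7 (-/-) cells with Dex thus stayed below the Sox7 (+/-) cells without it. Ccnd2 rose by 1.75 (SE 0.09, adjusted p = 8.6e-08) and 1.47 (SE 0.09, adjusted p = 2.48e-07) with Dex. In Sox7 (-/-) cells it fell short of the Sox7 (+/-) level by 3.87-fold in XEN-like cells (log2 -1.95, adjusted p = 5.84e-07) and by 3.18-fold in ES cells (log2 -1.67, adjusted p = 7.4e-07). The 2 Dex responses differed by -0.28 (SE 0.13, adjusted p = 0.14), and the sign of that value turned on the spike-in scale (0.12) and in the deposited table (0.06).

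All 3 Sox7 (-/-) ES arrays lay on another slide than the Sox7 (+/-) ES arrays, so no comparison within a slide exists for ES cells. With slide as a block, which rests on the Sox7 (-/-) XEN-like arrays of both slides, the ES difference of Ccnd2 was -1.80 and that of E2f2 1.26, and both stayed called. In that fit the ES difference of Ccnd1 turned from 0.25 to -1.41 and became a call (adjusted p = 0.0182). For Ccnd1, however, the block rests on Sox7 (-/-) XEN-like signals that were not well above background. These were 0.0447 on the slide of the Sox7 (-/-) ES arrays and 0.0144 and 0.0138 on the other. The block thus cannot decide the direction of Ccnd1 between the ES lines, which is not settled.

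Ccnd3 (probe at chr17:47736579-47736638, mm9) gave 53.2, 53.7 and 51.2, then 79.6, 76.9 and 86.5, in Sox7 (+/-) ES and XEN-like cells, and 57.8, 59.2 and 59.4, then 66.3, 65.1 and 64.8, in Sox7 (-/-) cells. It rose by 0.62 (adjusted p = 1.05e-05) and 0.15 (adjusted p = 0.0496), neither over 2-fold, and the rise was smaller in Sox7 (-/-) cells by a log2 difference of -0.47 (SE 0.09, adjusted p = 0.0036). On the spike-in scale the rise of Ccnd3 in Sox7 (+/-) cells was 0.14 (adjusted p = 0.331) and the difference -0.07 (adjusted p = 0.802), so both depend on the scale. Cdk4 differed by 0.17 and -0.01 with Dex (adjusted p = 0.168 and 0.952), and was higher in Sox7 (-/-) cells in both states, by 0.53 in ES and 0.35 in XEN-like cells (adjusted p = 0.00239 and 0.0261). Ccne1, the E cyclin that was detected, fell in Sox7 (-/-) cells by 0.61 (adjusted p = 0.0101), with -0.19 (adjusted p = 0.359) in Sox7 (+/-) cells. The responses did not differ by the test, at -0.42 (adjusted p = 0.232), or -0.95 (adjusted p = 0.0606) by a dimmer probe. In Sox7 (+/-) XEN-like cells Ccne1 gave 21.83, 20.32 and 35.4, so its smaller fall there rested in part on replicate 3. Its kinase Cdk2 was higher in Sox7 (-/-) cells by 0.57 in ES and 0.59 in XEN-like cells (adjusted p = 0.000129 and 0.000154) and did not pass the test in either Dex response.

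The inhibitors of cyclin-dependent kinases rose together in XEN-like cells. All 6 rose at the adjusted p in Sox7 (+/-) cells (4 called, median 1.27) and 5 of 6 in Sox7 (-/-) cells (3 called, median 1.06). Of all probes 37.5% and 34.0% rose. In Sox7 (+/-) cells the median of all probes moved from 0.16 to -0.33 on the spike-in scale. The count of 6 there, which includes Cdkn2b at 0.51, may therefore depend on the scale. Cdkn1a, which encodes p21, was 3.79 ± 0.153 in Sox7 (+/-) ES, 12.03 ± 2.11 in Sox7 (+/-) XEN-like, 1.97 ± 0.0561 in Sox7 (-/-) ES and 6.15 ± 0.443 in Sox7 (-/-) XEN-like cells (mean ± SD, n = 3 arrays here and below), and the groups did not overlap. Its Dex response was alike in size in the genotypes, 1.65 (SE 0.11, adjusted p = 5.8e-07) and 1.64 (adjusted p = 4.74e-07), with a difference of -0.01 ± 0.16 (SE). Its level was lower in Sox7 (-/-) cells by 0.96 in XEN-like and by 0.94 in ES cells (adjusted p = 0.000186 and 0.000133), just inside 2-fold, and these became calls of -1.01 and -1.11 with slide as a block and of -1.35 and -1.17 with the mean of its probes. Its other probes gave -1.61 and -1.50 in XEN-like cells, both called, and -1.69, called, and -0.89 in ES cells. Leaving out Sox7 (-/-) XEN-like replicate 1, the only XEN-like array on its slide, gives the same estimate as the slide block (-1.01). It is therefore no separate check. In XEN-like cells Cdkn1a was also called without Sox7 (+/-) replicate 2 (-1.06).

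Cdkn2a, the locus of p16 and p19Arf, changed most among the inhibitors. Its probe, at chr4:88920405-88920464 (mm9), gave 5.82, 5.84 and 4.94 in Sox7 (+/-) ES, 31.2, 31.1 and 15.7 in Sox7 (+/-) XEN-like, 4.31, 4.39 and 4.09 in Sox7 (-/-) ES and 19.97, 21.0 and 19.9 in Sox7 (-/-) XEN-like cells. Replicate 3 of the Sox7 (+/-) XEN-like cells lay well under the other two of its group and still above every ES array. The rise was 2.17 (SE 0.22, adjusted p = 1.31e-05) and 2.25 (SE 0.22, adjusted p = 7.95e-06), and 2.50 in Sox7 (+/-) cells without that array.

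By the brightest probe of each gene, Cdkn1b (p27) was the inhibitor whose Dex response differed between the genotypes by the test. It was 4.59 ± 0.234 in Sox7 (+/-) ES and 8.85 ± 1.17 in Sox7 (+/-) XEN-like cells, a rise of 0.94 (adjusted p = 1.01e-05), but 6.45 ± 0.0584 and 6.56 ± 0.174 in the Sox7 (-/-) cells, a difference of 0.02 (adjusted p = 0.836) with overlapping groups. The test of the difference gave -0.92 (SE 0.13, adjusted p = 0.000754), but -0.52 (adjusted p = 0.167) on the spike-in scale. Leaving out Sox7 (+/-) XEN-like replicate 3 turned the rise and this difference into calls (1.05 and -1.03). A second, dimmer Cdkn1b probe gave 1.56 and 0.32 for the Dex responses.

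The remaining inhibitors are Cdk4 and Cdk6 inhibitors of the Cdkn2 family. Cdkn2b rose by 1.22 (adjusted p = 0.000354) in Sox7 (-/-) cells and by 0.51 (adjusted p = 0.0471) in Sox7 (+/-) cells, where the groups overlapped, and its second, dimmer probe gave 0.89 and 0.08. The responses differed by 0.71 (adjusted p = 0.0933) by the brighter probe and by 0.81 (adjusted p = 0.0219) by the dimmer one. Cdkn2c rose by 1.32 (adjusted p = 0.00104) and 0.69 (adjusted p = 0.0337), from signals so low that it was well above background on only 2 of 3 Sox7 (+/-) ES arrays. Cdkn2d rose by 1.22 (adjusted p = 1.94e-05) and 0.91 (adjusted p = 0.000135). The calls of Cdkn2c and Cdkn2d in Sox7 (+/-) cells were lost on the spike-in scale and in the deposited table. Between the genotypes in XEN-like cells all 6 inhibitors lay below 0 (Cdkn1a and Cdkn1b at the adjusted p), but 3 of 6 lay above 0 on the spike-in scale and 5 of 6 in the deposited table.

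In the list of 22 other cell cycle regulators (20 tested), Ccng2, an atypical cyclin, was called higher in both genotypes (1.89 and 1.94) and the checkpoint kinase Chek2 lower in both (-1.10 and -1.20). Cdkn1c (p57) was called lower in Sox7 (+/-) cells (-2.77, with -0.56 in Sox7 (-/-) cells), its Dex response differed between the genotypes by 2.21, and it was called higher in Sox7 (-/-) XEN-like cells (1.32). Mybl2, a B-Myb factor of proliferating cells, fell in both genotypes, by 0.95 in Sox7 (+/-) and by 1.81, a call, in Sox7 (-/-) cells, and the responses differed by -0.86 (adjusted p = 0.00241). The list had medians of -0.03 and 0.00 in the Dex responses. In each of them 1 of the 20 was called higher and 2 lower. Of all probes 11.0% and 14.6% were called higher and 14.0% and 14.2% lower.

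Among the pocket proteins, Rb1 fell with Dex by 0.53 (adjusted p = 0.00155) and by 0.28 (adjusted p = 0.0399) and was lower by 0.53 in Sox7 (-/-) ES cells (adjusted p = 0.00283). Rbl1 (p107) did not pass the test in either Dex response but was higher in Sox7 (-/-) cells in both states, by 0.81 in ES cells (adjusted p = 0.000461) and by 0.98 in XEN-like cells (adjusted p = 0.000213), where it gave 0.865, 0.952 and 0.737 against 0.444, 0.417 and 0.427. These XEN-like groups did not overlap, and the value crossed 2-fold without Sox7 (+/-) replicate 1 (1.0045) or without Sox7 (-/-) replicate 3 (1.08). Rbl2 (p130) was near background and passed no test.

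The activator E2f genes split. E2f1 was 5.24 ± 0.23 in Sox7 (+/-) ES, 2.82 ± 0.168 in Sox7 (+/-) XEN-like, 7.89 ± 0.462 in Sox7 (-/-) ES and 3.32 ± 0.136 in Sox7 (-/-) XEN-like cells, and fell by 0.89 (adjusted p = 2.45e-06) and 1.25 (adjusted p = 1.5e-07), the latter called. E2f3 rose instead, by 0.66 and 0.57 (adjusted p = 0.000179 and 0.000445), the former at 0.18 on the spike-in scale (adjusted p = 0.296).

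E2f2 (probe at chr4:135750562-135750621, mm9) gave 2.51, 2.39 and 2.40 in Sox7 (+/-) ES cells and 5.94, 5.93 and 6.56 in Sox7 (-/-) ES cells. In XEN-like cells it gave 1.17, 1.16 and 1.42 in Sox7 (+/-) and 1.33, 1.22 and 1.30 in Sox7 (-/-) cells. The genotypes were apart only before Dex: they differed by 1.34 in ES cells (SE 0.09, adjusted p = 2.59e-06) and by 0.04 in XEN-like cells (adjusted p = 0.734), where they overlapped. E2f2 fell by 0.96 (adjusted p = 5.43e-06) in Sox7 (+/-) and by 2.26 (adjusted p = 7.31e-09) in Sox7 (-/-) cells, a difference of -1.29 (SE 0.12, adjusted p = 5.4e-05). That difference was -0.90 on the spike-in scale and -0.92 in the deposited table, short of 2-fold, and without Sox7 (+/-) XEN-like replicate 3 the fall in Sox7 (+/-) cells was called too (-1.06).

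E2f8, an atypical E2f that represses replication genes, was the one gene to pass the test in opposite directions. It was 2.98, 3.14 and 3.23 in Sox7 (+/-) ES, 2.23, 2.02 and 2.33 in Sox7 (+/-) XEN-like, 2.84, 3.06 and 3.101 in Sox7 (-/-) ES and 3.68, 4.16 and 3.77 in Sox7 (-/-) XEN-like cells. The ES groups overlapped and the XEN-like groups lay on either side of them. E2f8 fell by 0.51 (adjusted p = 0.000289) and rose by 0.37 (adjusted p = 0.00216), and the responses differed by 0.87 (SE 0.11, adjusted p = 0.00038). The opposite signs held under normexp, quantile and spike-in scaling, in the deposited table and with slide as a block, and the difference was called on the spike-in scale (1.27) and in the deposited table (1.30).

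For the other E2f genes no difference between the genotypes in Dex response passed the test (adjusted p = 0.93 for E2f4, 0.424 for E2f5, 0.694 for E2f6 and 0.613 for E2f7). E2f6, a repressor, rose by 0.85 and 0.76 (adjusted p = 3.34e-05 and 5.91e-05), and E2f4, which acts mostly with pocket proteins, fell by 0.53 and 0.49 (adjusted p = 0.0141 and 0.0179). E2f5 rose by 0.35 in Sox7 (+/-) cells (adjusted p = 0.0106, but -0.13 on the spike-in scale and -0.03 in the deposited table), with 0.19 in Sox7 (-/-) cells (adjusted p = 0.118), and was higher in Sox7 (-/-) cells in both states. E2f7, like E2f8 an atypical repressor, passed the test only in XEN-like cells, where it was lower by 0.64 in Sox7 (-/-) cells (adjusted p = 0.0326). That value rested on 1 probe and in part on 1 array: the second E2f7 probe gave 0.07 (adjusted p = 0.72), and the brighter one gave -0.39 without Sox7 (+/-) XEN-like replicate 3 (adjusted p = 0.0567).

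Genes of DNA replication fell by modest amounts in XEN-like cells. Of 11, 9 fell in each genotype at the adjusted p, with medians of -0.56 in Sox7 (+/-) and -0.80 in Sox7 (-/-) cells. Of all probes 25.3% and 31.3% fell. The helicase subunits Mcm2 to Mcm7 all fell, from -0.23 (Mcm4) to -1.01 (Mcm5) in Sox7 (+/-) cells and from -0.37 (Mcm4) to -1.26 (Mcm5) in Sox7 (-/-) cells. Mcm5 was 33.2 ± 0.965 and 16.8 ± 3.83 in Sox7 (+/-) ES and XEN-like cells and 42.5 ± 2.19 and 17.8 ± 1.22 in Sox7 (-/-) cells. Its call in Sox7 (+/-) cells lay at the threshold (adjusted p = 8.74e-05) and was lost without ES replicate 2 (-0.99) or XEN-like replicate 1 (-0.93) or 2 (-0.91).

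Mcm10, which loads the polymerase at origins, was 22.1 ± 0.85 and 12.6 ± 0.681 in Sox7 (+/-) cells and 32.0 ± 0.667 and 16.0 ± 0.134 in Sox7 (-/-) cells, and fell by 0.81 (adjusted p = 1.55e-06) and 1.001 (adjusted p = 2.34e-07). The latter call lay at 2-fold too and was lost without Sox7 (-/-) ES replicate 1 or Sox7 (-/-) XEN-like replicate 2, with -0.99 for both, and also with slide as a block (-0.99) and with normexp correction. Pcna, the sliding clamp, fell by 0.32 and 0.46 (adjusted p = 0.0206 and 0.00274), and Cdt1, which licenses origins, by 0.47 and 0.79 (adjusted p = 4.83e-05 and 7.53e-07). The fall of Cdt1 was larger in Sox7 (-/-) cells by a log2 difference of -0.32 (adjusted p = 0.0161), a sign that turned on the spike-in scale (0.08) and in the deposited table (0.15). Gmnn, which blocks Cdt1, had 0.11 and -0.20 and passed neither test. Cdc6, another licensing factor, rose by 0.64 in Sox7 (-/-) cells (adjusted p = 0.00465) by its brighter probe, but its other probe fell by 0.50 (adjusted p = 0.00864), so its direction is uncertain.

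Between the genotypes all 11 replication genes lay above 0 in Sox7 (-/-) cells in both states, with 7 at the adjusted p in XEN-like cells (median 0.33, beside 0.00 for all probes) and 8 in ES cells (median 0.46, beside 0.10), none over 2-fold. At the adjusted p, 16 of the 53 genes were higher and 7 lower in Sox7 (-/-) XEN-like cells, where 19.1% and 15.4% of probes were, and 24 higher and 7 lower in ES cells, where 28.2% and 16.9% were. The largest ES differences among replication genes were those of Pcna (0.67, adjusted p = 0.000683) and Mcm6 (0.63, adjusted p = 2.99e-05). With slide as a block 4 of the 11 passed in ES cells, and on the spike-in scale 10 of 11 lay above 0 there. For the difference in Dex response, 10 of 11 lay below 0, but all 11 lay above 0 on the spike-in scale and in the deposited table.

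The 35 other replication genes, among them subunits of the origin recognition complex and polymerases, moved less, with medians of -0.07 and -0.21. Rfc5, a clamp loader subunit, was called lower in both genotypes (-1.15 and -1.21). Pola1 (-1.44), Uhrf1 (-1.31), Orc2 (-1.16) and Rpa1 (-1.15) were called lower in Sox7 (-/-) cells. Of all probes 14.0% were called lower with Dex in Sox7 (+/-) and 14.2% in Sox7 (-/-) cells. At the adjusted p, 26 of the 35 were higher in Sox7 (-/-) ES cells, where 28.2% of all probes were, but 4 with slide as a block and 6 on the spike-in scale.

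**Figure D3:**
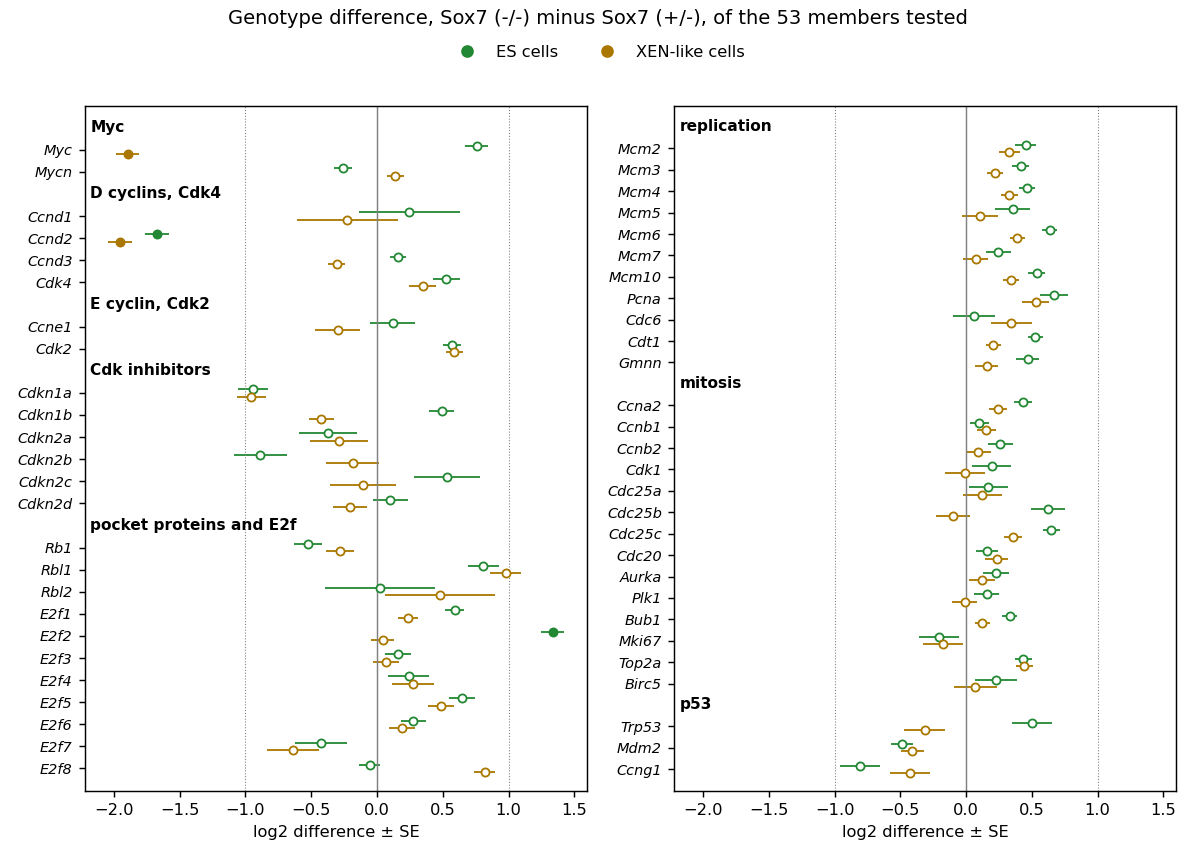
Log2 difference between Sox7 (-/-) and Sox7 (+/-) cells for the 53 tested genes, grouped by role, with ES cells in green and XEN-like cells in brown, filled where called, SE as bars and dotted lines at 2-fold. Replication genes lie right of 0 in both states, Ccnd2 lies left in both at -1.67 and -1.95, Myc left in XEN-like cells at -1.90 and E2f2 right in ES cells at 1.34.

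Genes of mitosis changed less than those of replication. Of 14 tested, 7 fell and 1 rose at the adjusted p in Sox7 (+/-) cells (median -0.21), and 9 fell and 1 rose in Sox7 (-/-) cells (median -0.33). Of all probes 25.3% fell and 37.5% rose in the former, and 31.3% fell and 34.0% rose in the latter. Cdc25b, a phosphatase that activates Cdk1, was the one called: it was 2.05 ± 0.0656 and 1.63 ± 0.336 in Sox7 (+/-) ES and XEN-like cells and 3.15 ± 0.0806 and 1.50 ± 0.0641 in Sox7 (-/-) cells. It fell by 0.35 (adjusted p = 0.0374) and 1.08 (adjusted p = 3.82e-05), and the responses differed by -0.72 (SE 0.19, adjusted p = 0.0166). The fall in Sox7 (+/-) cells was -0.17 without XEN-like replicate 3, and the difference was -0.33 on the spike-in scale (adjusted p = 0.478). As for E2f2, the gap between the genotypes lay in ES cells, at 0.62 (adjusted p = 0.0036), with -0.10 (adjusted p = 0.589) in XEN-like cells.

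The fall of Cdc20, an activator of the anaphase-promoting complex, was 0.70 and 0.63 (adjusted p = 4.63e-05 and 8.49e-05), and that of the checkpoint kinase Bub1 was 0.50 and 0.71 (adjusted p = 2.28e-05 and 1.32e-06). Ccnb1 and Ccnb2, the B cyclins, Aurka, a spindle pole kinase, and Top2a, which untangles chromosomes, fell by 0.30 to 0.50 in both genotypes. Cdc25c and Plk1, a mitotic kinase, fell in Sox7 (-/-) cells only by the test, by 0.39 (adjusted p = 0.000497) and 0.29 (adjusted p = 0.0209), and the responses differed by -0.29 for Cdc25c (adjusted p = 0.0454, but 0.11 on the spike-in scale and 0.12 in the deposited table) and by -0.17 for Plk1 (adjusted p = 0.394). Ccna2, Cdk1, Cdc25a and Birc5 passed the test in neither Dex response. Mki67, the antigen used as a mark of cycling cells, rose by 0.48 and 0.51 (adjusted p = 0.0187 and 0.0131), the former at -0.01 on the spike-in scale. The mitotic genes with printed promoters thus ranged from -0.70 (Cdc20) to 0.20 (Cdk1) in Sox7 (+/-) cells.

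Of 29 other mitotic genes none was called in Sox7 (+/-) cells and 2 were called lower in Sox7 (-/-) cells, Ect2 (-1.15), which drives cytokinesis, and Bub1b (-1.01), a checkpoint kinase. Both counts lie below the shares of all probes called lower, 14.0% and 14.2%. The medians of the 29 genes were -0.16 and -0.25, near those of the 14 genes of the set.

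Trp53 itself fell with Dex. Its probe, at chr11:69404204-69404263 (mm9), gave 1.78, 1.87 and 1.67 in Sox7 (+/-) ES, 0.666, 0.435 and 0.616 in Sox7 (+/-) XEN-like, 2.46, 2.74 and 2.35 in Sox7 (-/-) ES and 0.471, 0.396 and 0.497 in Sox7 (-/-) XEN-like cells. All XEN-like arrays lay below all ES arrays, and the XEN-like groups overlapped each other. The fall was 1.65 (SE 0.15, adjusted p = 5.79e-06) and 2.47 (SE 0.15, adjusted p = 2.13e-07), and larger in Sox7 (-/-) cells by a log2 difference of -0.82 (SE 0.22, adjusted p = 0.0188), which became a call of -1.005 without Sox7 (+/-) XEN-like replicate 2. This difference was -0.42 on the spike-in scale (adjusted p = 0.213) and -0.39 in the deposited table (adjusted p = 0.322), where it did not pass the test. Mdm2, the ligase that degrades p53, was lower in Sox7 (-/-) cells by 0.49 in ES and 0.41 in XEN-like cells (adjusted p = 0.00127 and 0.00506), the latter turning to 0.05 in the deposited table. Ccng1, a p53 target, rose by 0.58 and 0.97 (adjusted p = 0.00731 and 0.000249), the former at 0.10 on the spike-in scale (adjusted p = 0.524), and the latter became a call of 1.02 without Sox7 (-/-) ES replicate 1.

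Other targets of p53 moved in both directions while Trp53 fell and its target Cdkn1a rose. Of 19 tested, Perp (-2.65) and Fas (-2.08, with no XEN-like array well above background) were called lower in Sox7 (+/-) cells, and Btg2 (1.78), Ppm1d (1.29) and Pmaip1 (1.16) higher in Sox7 (-/-) cells. Fas was thereby at least 1.24-fold lower. Of all probes 14.0% were called lower with Dex in Sox7 (+/-) cells and 14.6% higher in Sox7 (-/-) cells. In ES cells Perp, Btg2, Plk2 and Phlda3 were called lower in Sox7 (-/-) cells (-1.75, -1.74, -1.72 and -1.01), and Pmaip1 was called higher (1.08). In XEN-like cells 12 of the 19 were lower and 2 higher in Sox7 (-/-) cells at the adjusted p, where 15.4% and 19.1% of all probes were. Plk2 was called lower (-1.10) and Pmaip1 called higher (1.86). The median of all probes in this comparison moved from 0.00 to 0.24 on the spike-in scale and to 0.34 in the deposited table. The count of 12 may therefore depend on the scale. The Dex responses of Perp and Btg2 differed between the genotypes by 2.62 and 1.45.

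**Figure D4:**
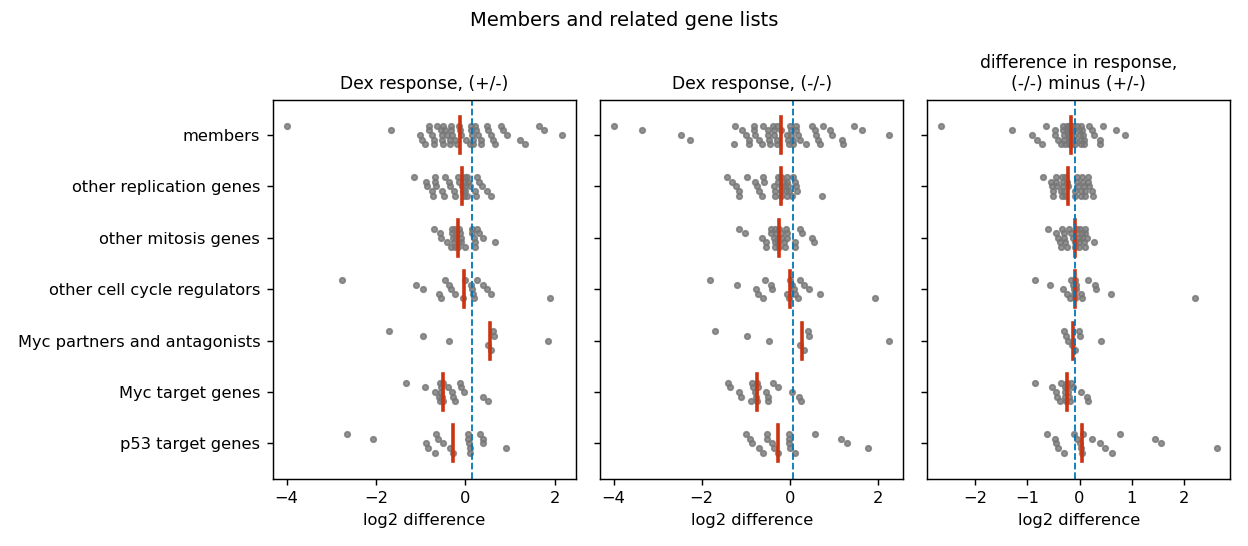
Log2 differences of the 53 tested genes and of the 6 pathway lists, 1 grey dot per gene, with a panel for each genotype's Dex response and 1 for their difference; red bars are list medians and the blue dashed line is the median of all tested probes. Myc targets sit lowest by median, at -0.50 and -0.74, and Ccnd1 is drawn at the edge.

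In all, 15 of the 53 genes were called in at least 1 of the 5 comparisons, 49 passed the adjusted p in at least 1, and Birc5, Cdc25a, Cdk1 and Rbl2 in none. The share of all probes that passed in at least 1 comparison was not counted, so these counts do not set the genes apart. In the Dex response of Sox7 (+/-) cells alone 37.5% of all probes rose and 25.3% fell at the adjusted p. In 38 of the 53 no comparison was called. Markers of other states moved beside these genes: genes of a totipotent-like state that includes Zscan4c (5 of 6 listed genes had a probe) summed to 49.9 to 53.2 in Sox7 (+/-) ES, 15.7 to 22.1 in Sox7 (-/-) ES, 2.45 to 3.81 in Sox7 (+/-) XEN-like and 1.87 to 2.32 in Sox7 (-/-) XEN-like cells. Fibroblast markers summed to 3.54 to 4.42 in ES and 0.383 to 0.468 in XEN-like cells, where Col1a1, Thy1 and Postn were below background. The study describes culture on gelatin and names no feeder cells. Trophectoderm markers summed to 6.38 to 6.50 and 3.81 to 4.07 in Sox7 (+/-) and Sox7 (-/-) ES cells and to 0.822 to 1.02 and 2.20 to 2.49 in the XEN-like cells, 4 endothelial markers summed to 11.3 to 19.0 in all groups, and 6 glucocorticoid response genes summed to 37.3 to 45.3 in ES and 26.5 to 28.5 in XEN-like cells. Within these sums genes went opposite ways: Tek rose with Dex by 3.30 and 3.75 while Cdh5 had -0.78 and -2.49 and Pecam1 -0.999 and -2.04, and Zbtb16 rose by 1.85 and 1.24 while Fkbp5 fell by 2.20 and 2.09. The Dex responses of Cdh5 and Pecam1 differed between the genotypes by -1.71 and -1.04, both called. The part of these states in the results was not tested.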

How the data were processed

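RNA of the 4 groups had been hybridized to 12 one-colour Agilent SurePrint G3 mouse arrays and read with Agilent Feature Extraction 10.7.3.1, per the labels. The deposited intensity values are the authors' scanner output for each array, whose processed signal had its background subtracted and was detrended, with no scaling across arrays. A deposited table of all arrays holds linear intensity too. Its values differed from mean spot signals by at most 0.498% and are neither background-subtracted nor scaled. Probe positions are those of the files (mm9) and were not mapped again, and promoter sequence came from RefSeq on GRCm38.p6.

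The 59305 spots besides controls were averaged per probe on the log2 scale (55681 probes), and each array was scaled by subtracting the log2 of its 75th percentile. Probes were kept where every array of at least 1 group was well above background, and these 25940 were fitted with limma 3.58.1 in R 4.3.3, over all 12 arrays with a mean for each group (prior degrees of freedom 1.99), and p-values were adjusted over all of them by Benjamini-Hochberg. A probe was called at an adjusted p under 0.05 and over 2-fold. Each gene was read by its brightest tested probe; 39 of the 56 genes had 1 probe and 17 had several. The 5 comparisons were XEN-like against ES cells within each genotype, Sox7 (-/-) against Sox7 (+/-) within each state, and the interaction of both. Where a probe was not well above background on any array of a group, a bound was computed against the lowest signal among probes well above background. With 3 arrays in a group, the number of arrays limits the precision.

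The genes, pathway lists, markers and motifs were chosen with earlier results of these data known. Every gene called in a comparison was named, with the Myc, cyclin, inhibitor, E2f and p53 genes, and of the lists the genes called. The fit was tested on simulated data. Alternatives were normexp correction (offset 50), quantile normalization, 8 spike-in probes as the scale, the deposited table, no filter, no minimum fold, the mean of a gene's probes, blocks for replicate or slide, and leaving out each array. Arrays with the same replicate number deviated together at r = -0.051 to 0.126, so numbers were not treated as pairs. Promoter windows came from RefSeq (32851 windows of 27025 genes). They were not used here for Aurkb, Ccna2, Ccnd1, Ccnd2, Ccne2, Cdc25c, E2f4, E2f5, Gmnn, Mcm4, Myc and Rb1.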

Additional observations from a re-analysis of the deposited data

Results flagged for a closer look

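The Dex responses of Myc and E2f2 differed between the genotypes by the test of the difference itself. For Myc it was -2.65 (log2, Sox7 (-/-) minus Sox7 (+/-), limma adjusted p = 5.99e-07), with a fall of 0.71 in Sox7 (+/-) and of 3.36 in Sox7 (-/-) cells, and all 3 Sox7 (-/-) XEN-like arrays below all 3 Sox7 (+/-) ones. For E2f2 it was -1.29 (adjusted p = 5.4e-05), with a fall of 0.96 and of 2.26, and all 3 Sox7 (-/-) ES arrays above all 3 Sox7 (+/-) ES arrays. All Sox7 (-/-) ES arrays were on another slide than the Sox7 (+/-) arrays. With slide as a block the differences were -2.60 and -1.24. In that fit the Sox7 (-/-) Dex response rests on XEN-like replicate 1, the only XEN-like array on the slide of the Sox7 (-/-) ES arrays. The part of the slide, of the single line per genotype and of the unequal marker sums of the ES cells was not tested.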

How the results depend on the processing

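No gene that was called changed direction under any of the alternatives listed, but the ES difference of Ccnd1, 0.25 and not called, became a call of -1.41 with slide as a block. That block rests on Ccnd1 signals not well above background, so it cannot decide this direction. In Sox7 (+/-) cells, where 5 genes of the set were called higher and 3 lower with Dex, 7 were lower with quantile normalization, 3 higher and 14 lower on the spike-in scale, and 3 higher and 11 lower in the deposited table, and 6 were higher with the mean of a gene's probes (Cdkn1b, 1.25). The median of all probes moved from 0.16 to -0.33 on the spike-in scale and to -0.23 in the deposited table in this comparison, and from 0.00 to 0.24 and 0.34 for the genotypes in XEN-like cells. There the calls (0 higher, 2 lower) became 1 higher with quantile normalization, 2 higher on the spike-in scale, 2 higher and 1 lower in the deposited table, and 3 lower with the mean of a gene's probes (Cdkn1a, -1.35) and with slide as a block (Cdkn1a, -1.01). In ES cells (1 lower) 2 were lower with quantile normalization, 3 on the spike-in scale, 2 with the mean of a gene's probes and 3 with slide as a block (Ccnd1 among them). For the difference in Dex response (0 higher, 2 lower), 1 was higher and 1 lower both on the spike-in scale and in the deposited table, and 3 were lower with the mean of a gene's probes (Cdkn1b, -1.08). Without a minimum fold the counts higher and lower were 14 and 24 in Sox7 (+/-), 15 and 26 in Sox7 (-/-), 16 and 7 in XEN-like cells, 24 and 7 in ES cells, and 2 and 9 for the difference. For the difference, 12.3% of all probes were higher and 14.9% lower at the adjusted p.

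Leaving out each array in turn gave 5 to 6 higher and 2 to 4 lower in Sox7 (+/-) cells, 5 to 6 and 7 to 8 in Sox7 (-/-) cells, 0 to 1 and 2 to 3 in XEN-like cells, 1 and 1 in ES cells, and 0 and 2 to 3 for the difference. For single genes, 244 values under the other alternatives stayed past the threshold and 14 did not, against 169 and 5 with an array left out. The other alternatives include no minimum fold, which reuses the same fit and so cannot lose a call. They also include an alternative chosen after seeing the data, given below. The 244 values are thus not all separate checks. Lost with normexp correction were Cdkn2c in Sox7 (+/-) cells and Cdkn2b, Mcm10 and Cdc25b in Sox7 (-/-) cells. The replicate block changed no call: 5 and 3 genes in Sox7 (+/-) and 5 and 8 in Sox7 (-/-) cells stayed higher and lower, as in the analysis without pairing. With Sox7 (-/-) XEN-like cells from the slide of the ES arrays alone, an alternative chosen after seeing the data, Mcm10 was inside 2-fold. That estimate is the same as with slide as a block (-0.99), so it is no separate check. The cause of these changes was not tested. Probes near background limit Cdkn2c, Rbl2 and Ccnd1 in XEN-like cells.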
